A study of Rattus norvegicus with 7 samples.

Results

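The genes described here encode signals of the TGF-beta superfamily and the Id proteins that BMP signals induce: the Id genes Id1, Id2 and Id3, the ligands Bmp4, Inhba, Tgfb1, Tgfb2 and Tgfb3, the activin-binding protein Fst and the receptor Tgfbr1. They were chosen by symbol, and every probe set that the platform annotation gives to one of them was used. All 10 were on the array, of 4736 genes with a symbol, with 15 probe sets in all. The choice was made with their signals over all arrays known, mainly the changes in treated astrocytes, so their own differences are given as descriptions without a test.

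The signals came from primary cultures of hippocampal neurons and hippocampal astrocytes of Wistar rats labelled as 17-day-old. All cultures were kept in DMEM with glutamine, N1 supplement and antibiotics, and were treated for 24 h with a polyphenol-rich extract of grape seeds. The doses were 0, 1 and 10 µg/ml for neurons, and these 3 and 100 µg/ml for astrocytes. Each of the 7 combinations was hybridised to 1 Affymetrix array, so a single dose carries no replicate error, and nothing in the labels says how many animals or cultures an array stands for.

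BMPs, activins and TGF-betas are secreted dimers that bind pairs of type I and type II serine/threonine kinase receptors, which phosphorylate SMAD proteins that then act on transcription in the nucleus. The Id genes are among the best known direct targets of BMP signals. Id proteins have a helix-loop-helix domain but no DNA-binding region, and they hold back the basic helix-loop-helix (bHLH) factors that drive neuronal and oligodendroglial differentiation. In the developing brain BMP signals favour the astrocyte fate, while follistatin, noggin and other secreted proteins bind the ligands and keep them from their receptors.

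The Id genes turned out to be low together on the array with the highest dose, so the 250 bases before their annotated start sites are shown first, 5′ to 3′ on the gene's strand, from RefSeq in the GRCr8 build. The windows are chr3:161671314-161671563 on the + strand for Id1, chr6:47470996-47471245 on the - strand for Id2 and chr5:153656041-153656290 on the + strand for Id3. Capitals mark matches on either strand to CCAAT (the CCAAT box) or TATAAA (the TATA box), and these motifs do not overlap one another here.
Id1: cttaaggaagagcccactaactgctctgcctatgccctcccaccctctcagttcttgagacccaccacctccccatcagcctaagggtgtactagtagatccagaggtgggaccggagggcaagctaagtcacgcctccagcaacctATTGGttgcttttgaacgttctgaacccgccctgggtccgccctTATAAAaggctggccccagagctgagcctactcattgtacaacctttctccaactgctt
Id2: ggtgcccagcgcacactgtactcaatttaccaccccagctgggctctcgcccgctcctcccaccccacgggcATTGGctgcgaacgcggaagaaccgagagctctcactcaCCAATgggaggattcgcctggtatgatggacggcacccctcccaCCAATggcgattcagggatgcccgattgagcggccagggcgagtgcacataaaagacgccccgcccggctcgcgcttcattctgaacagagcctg
Id3: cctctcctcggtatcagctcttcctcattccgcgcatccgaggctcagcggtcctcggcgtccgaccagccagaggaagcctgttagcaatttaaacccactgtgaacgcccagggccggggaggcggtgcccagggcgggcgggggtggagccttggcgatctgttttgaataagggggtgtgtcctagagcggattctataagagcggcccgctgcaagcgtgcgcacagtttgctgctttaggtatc
The Id1 window held 1 CCAAT match, which starts 103 bases before the start site, and 1 TATAAA match at 59 bases. The Id2 window held 3 CCAAT matches, and the Id3 window held neither motif. Matches to GGCGCC, a GC-rich element bound by BMP-activated SMADs, and to CAGAC, the SMAD box, were also searched on both strands and were in none of the 3 windows. The search covered only these 250 bases, so it says nothing about elements elsewhere. Of 33469 rat promoter windows of this length, 34.0% held CCAAT, 12.9% TATAAA, 8.69% GGCGCC and 42.9% CAGAC. Promoter entries were matched for 9 members, all but Fst. Among the members not shown, Bmp4 held 2 CAGAC matches, Tgfbr1 1 GGCGCC match and 2 CCAAT matches, and Inhba 3 CCAAT matches and 1 TATAAA match, while Tgfb1, Tgfb2 and Tgfb3 held none of the 4 motifs. A match is a string of letters and is not known to be a site.

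Facts of the arrays bear on all values. Their 2%-trimmed mean signals lay between 500.731 and 500.874, while the median signal ran from 84.6 to 87.7 in neurons and from 65.4 to 84.1 in astrocytes, lowest at 100 µg/ml. Neuron markers separated the cultures, with a summed signal over 5 genes of 11522 to 12098 on neuron arrays and 604 to 1333 on astrocyte arrays. Astrocyte markers did not, since the sum over 8 genes was 34315 to 35588 on neuron arrays and 34781 to 39892 on astrocyte arrays. These sums hide single genes. In astrocytes at 100 µg/ml, 2 of the 8 were at least 2-fold below the untreated array and 0 were above it. They were Slc1a3 (966 against 3976) and Aqp4 (255 against 567). The astrocyte arrays also carried markers of other cells: the microglia and macrophage list (8 genes) summed to 3536 to 6529 against 622 to 940 in neurons, the oligodendrocyte list (5 genes) to 5746 to 7475 against 638 to 734, and the fibroblast and meningeal list (7 genes) to 42657 to 51683 against 8058 to 9818. The endothelial and pericyte list (4 genes) went the other way, with sums of 120 to 215 on astrocyte arrays against 297 to 399 in neurons. In such cultures fewer cells of a type and less RNA per cell cannot be told apart.

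A floor of 17.9, which is the 25th percentile of signals, replaced any lower signal on the log2 scale, and folds that use it are bounds. A gene was represented by its brightest probe set and entered a comparison if its mean log2 signal in that cell type lay above the log2 of 79.9, the median of all signals. Id1, Id2, Id3, Inhba, Fst, Tgfb2 and Tgfb3 passed in neurons, 7 of 10, and with Bmp4 8 passed in astrocytes. Tgfb1 and Tgfbr1 passed in neither and are given as signals only. Changes are set against the untreated array of the same cell type, so all doses of a cell type share that array. They are given in log2 relative to the median gene, which itself stood at -0.00, -0.10 and -0.28 in astrocytes at 1, 10 and 100 µg/ml. After quantile normalization the last of these was -0.11.

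**Figure D1:**
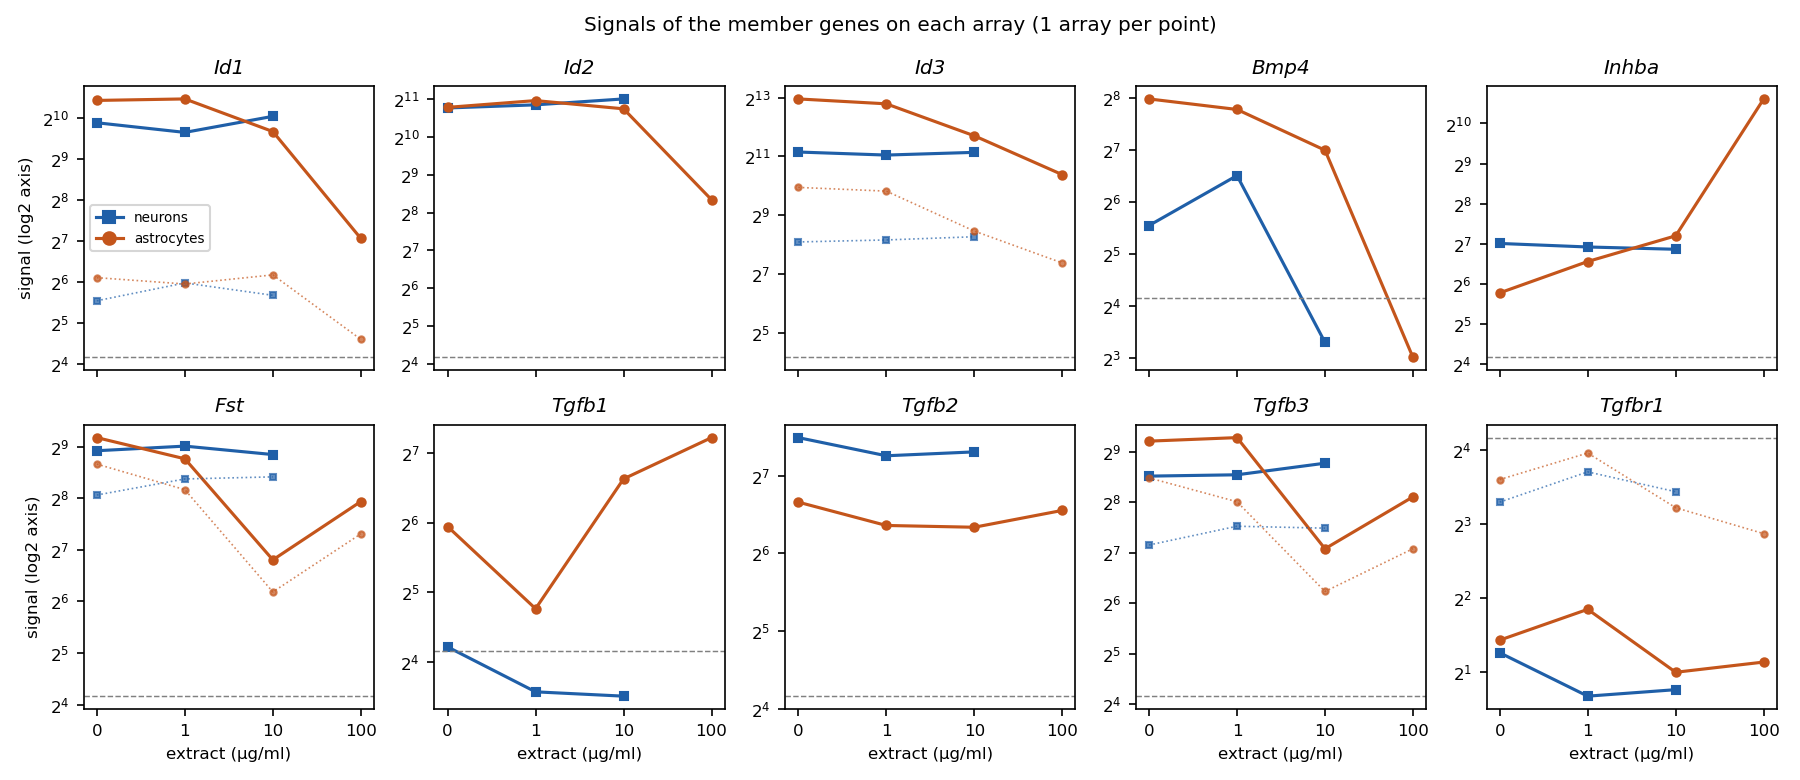
Deposited signal (log2 axis) of the 10 genes against the dose of extract in µg/ml, 1 array per point, with neurons as blue squares and astrocytes as orange circles. Solid lines join the brightest probe set of a gene (for Tgfbr1, where both tie at the floor, 1 of them), dotted lines its other probe set, and the dashed grey line is the floor of 17.9. The 3 Id genes are lowest and Inhba is highest on the astrocyte array at 100 µg/ml, while Fst and Tgfb3 are lowest at 10 µg/ml.

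The Id genes were the members that stood lower at the highest dose as a group. Id1, which holds back bHLH factors in progenitors and in endothelium, had signals of 1381, 1417, 816 and 134 in astrocytes at 0, 1, 10 and 100 µg/ml. The untreated array and the 1 µg/ml array were close, and the array at 100 µg/ml lay far below the other three arrays. The change relative to the median gene was -3.09 log2 at 100 µg/ml, or 8.50-fold lower, and -0.66 at 10 µg/ml. In neurons Id1 had 947, 804 and 1055 at 0, 1 and 10 µg/ml, with no order along the dose. The other probe set of Id1, taken from the same sequence, was dim and did not pass the filter, with 69.0, 62.0, 72.3 and 24.3 in astrocytes. It was also lowest at 100 µg/ml, but it was not lower at 10 µg/ml.

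Id2, a widely expressed member of the family that opposes neuronal bHLH factors, differed from Id1 and Id3 at 10 µg/ml. Its signals in astrocytes were 1770, 2005, 1723 and 324 at 0, 1, 10 and 100 µg/ml, so that the first 3 arrays lay close together and only the last stood apart. The change at 100 µg/ml was -2.17, or 4.50-fold lower, against 0.06 at 10 µg/ml. In neurons the signals were 1751, 1854 and 2067, slightly higher with each dose by 0.08 and 0.25 log2, both inside the range that held 90% of genes there.

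Id3, a BMP-responsive inhibitor of bHLH factors that is abundant in astroglia, was lower at each dose. Its signals in astrocytes were 7938, 7073, 3329 and 1332 at 0, 1, 10 and 100 µg/ml, while neurons had 2271, 2114 and 2253. The astrocyte signals at 0 to 10 µg/ml lay above all 3 neuron arrays, and that at 100 µg/ml lay below them. The changes in astrocytes were -0.16, -1.16 and -2.30, the last of these 4.91-fold lower. A second probe set of Id3, from another sequence, gave 986, 903, 352 and 166, the same order. Thus at 10 µg/ml Id3 was past 2-fold, Id1 was not, and Id2 stood at 0.06.

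Of the ligands, Bmp4 was lower and Inhba higher. Bmp4, a BMP ligand that directs neural precursors towards astrocytes, had signals of 253, 220, 128 and 8.10 in astrocytes at 0, 1, 10 and 100 µg/ml. The order followed the dose, and the last value was under the floor. The change at 100 µg/ml was therefore at most -3.54 log2, or at least 11.6-fold lower, after -0.89 at 10 µg/ml. In neurons Bmp4 was dim and did not pass the filter, with 46.9, 91.2 and 9.90, so its order there has little meaning.

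The genes whose 7-array pattern was nearest to Bmp4 were Tlr4 and Inpp5d. These genes of innate immune and blood-lineage cells differed from it by a root mean square of 0.56 and 0.61 log2. Tlr4 had 187, 117, 163 and 11.0 in astrocytes at these doses. Markers of microglia moved unevenly on the same arrays: Aif1, a calcium-binding protein of microglia, had 1637, 1382, 1426 and 251, while Fcgr2b, an Fc receptor, had 248, 258, 618 and 1162. Over the microglia and macrophage list, 2 of 8 genes were at least 2-fold lower and 1 higher at 100 µg/ml, and the summed signal was 5229 untreated and 3536 at 100 µg/ml. The part of these cells in the Bmp4 result was not tested.

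Inhba encodes the beta A subunit, which forms activin A. Its signals in astrocytes were 54.7, 94.1, 147 and 1566 at 0, 1, 10 and 100 µg/ml, in the order of the dose. In neurons they were 129, 121 and 116, a range narrower than the gap between any neighbouring astrocyte doses. The changes in astrocytes were 0.79, 1.52 and 5.12, the last 34.8-fold higher. Against the 1 µg/ml array in place of the untreated one, the change at 10 µg/ml was 0.64 on the deposited scale, so that it no longer reached 2-fold. Its nearest genes in pattern were Junb and Fos, both subunits of the AP-1 transcription factor, at 0.38 and 0.46 log2. Junb had 390, 463, 1538 and 10108 in astrocytes, and Fos 428, 359, 530 and 14647.

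The TGF-beta ligands differed from one another. Tgfb3, a ligand that acts through the TGF-beta receptors, had signals of 591, 620, 135 and 275 in astrocytes at 0, 1, 10 and 100 µg/ml. The 2 lower doses lay together, the array at 10 µg/ml was lowest and that at 100 µg/ml stood between. The changes at 10 and 100 µg/ml were -2.03, or 4.09-fold lower, and -0.82. Its other probe set, from the same sequence, had 357, 257, 75.2 and 135 and the same lowest array. In neurons the brighter probe set had 366, 373 and 437.

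Tgfb2, another TGF-beta ligand, varied least among the ligands that passed the filter. Its astrocyte signals were 101, 82.1, 80.8 and 93.9, and its neuron signals 180, 153 and 158. Every neuron array lay above every astrocyte array, and the changes relative to the median gene were -0.30, -0.23 and 0.17 in astrocytes and -0.23 and -0.17 in neurons. Tgfb1, the ligand made mainly by microglia in brain, was dim, with 61.6, 27.2, 98.9 and 149 in astrocytes and 18.6, 11.9 and 11.4 in neurons. Those neuron signals were at or near the floor on all 3 arrays, and the astrocyte signals were lowest at 1 µg/ml and highest at 100 µg/ml.

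Fst, follistatin, binds activin and keeps it from its receptors, and like Tgfb3 it was lowest in astrocytes at 10 µg/ml. In astrocytes the signals were 579, 436, 112 and 245 at 0, 1, 10 and 100 µg/ml, and in neurons 486, 517 and 461. Astrocytes at 10 µg/ml stood below every other array, and the array at 100 µg/ml below all but that one. The changes in astrocytes were -0.41, -2.28 and -0.96, so the gene was 4.84-fold lower at 10 µg/ml and 1.95-fold lower at 100 µg/ml. The other probe set of Fst, from the same sequence, had 406, 288, 72.7 and 159. Its ligand's subunit gene, Inhba, was higher on both of these arrays.

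Fst was nearest in pattern to Nog, noggin, a BMP-binding antagonist, at 0.22 log2, and to Sstr4, a somatostatin receptor, at 0.23. Nog had 159, 144, 36.9 and 53.2 in astrocytes. Tgfb3 was nearest to Tnfrsf1a, a TNF receptor (0.20), and Gpr12 (0.25). Id3 was nearest to Fhl2 (0.25) and Rapgef3 (0.27), Id1 to Prim2 (0.17) and Pik3c3 (0.18), Id2 to Rprd2 and Bet1l (both 0.15) and Tgfb2 to Ppp5c (0.09) and Atp2b1 (0.11). These are the nearest of 2935 other genes over the 7 arrays, and a small distance carries no test.

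The receptor Tgfbr1, a type I receptor for TGF-beta, had signals of 1.60 to 3.60 on one probe set and 7.30 to 15.5 on the other, all under the floor on all 7 arrays. With both at the floor neither ranks as the brighter. No change could be measured for it.

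**Figure D2:**
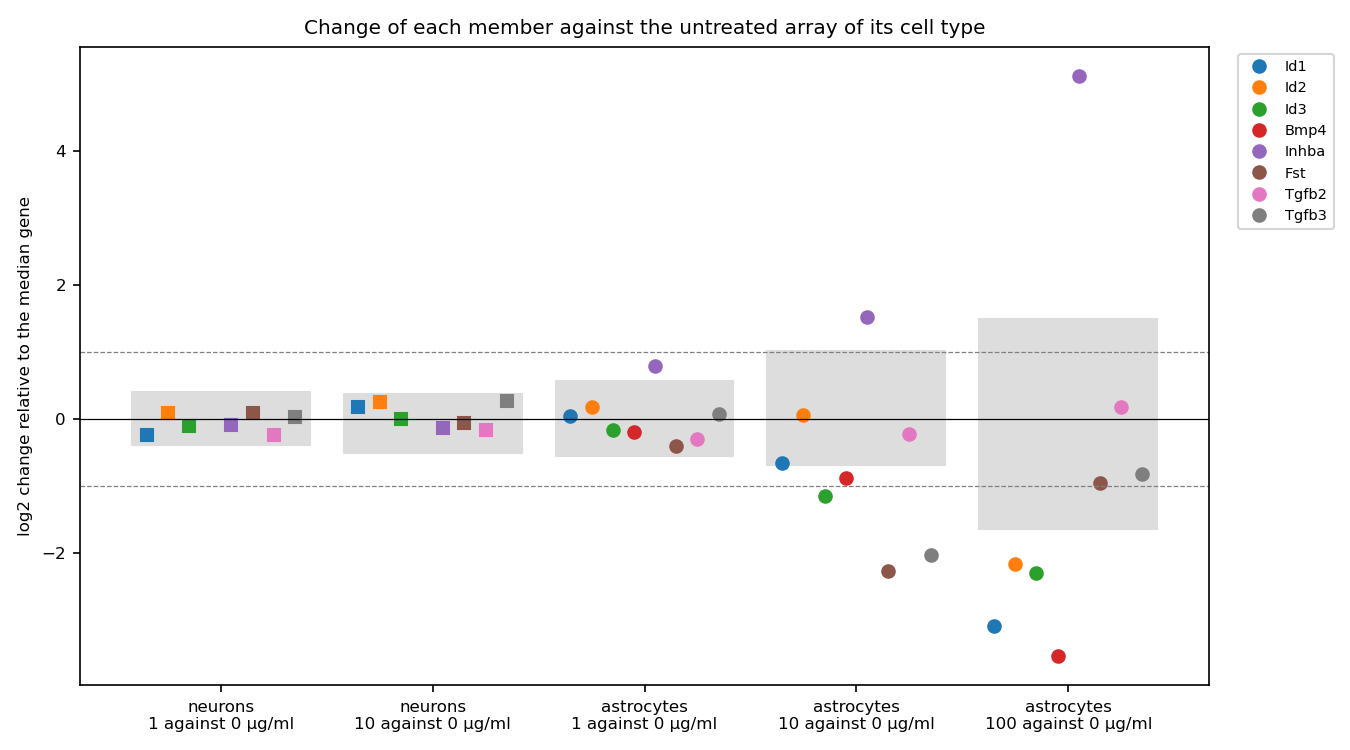
Log2 change relative to the median gene (vertical axis) for the members that passed the signal filter, in each treated array, with untreated cells of the same type as the reference; squares are neurons, circles astrocytes, and each colour is a gene. Grey bands hold 90% of all genes in that comparison and dashed lines mark 2-fold. Neuron points lie inside the bands at both doses, and Id1, Id2, Id3, Bmp4 and Inhba lie outside the band in astrocytes at 100 µg/ml.

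In neurons no member that passed was 2-fold changed at 1 or 10 µg/ml. At 1 µg/ml 0.576% of 2778 genes were (0.288% higher and 0.288% lower) and at 10 µg/ml 0.792% (0.288% higher and 0.504% lower), so a count of 0 among 7 genes is no result about the members. Their largest change relative to the median gene was 0.27 (Tgfb3 at 10 µg/ml), and at both doses all 7 lay inside the range that held 90% of genes, which was -0.51 to 0.37 at 10 µg/ml.

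In astrocytes at 1 µg/ml none of the 8 was 2-fold changed either, where 1.71% of 2694 genes were (0.965% higher and 0.742% lower), and Inhba alone lay outside the range that held 90% of genes, -0.56 to 0.57. At 10 µg/ml 3 members were at least 2-fold lower, Fst, Tgfb3 and Id3, against 2.26% of all genes, and Inhba was higher, against 4.34% (6.61% in either direction). At 100 µg/ml 6 were at least 2-fold lower on the deposited scale against 19.6% of genes, and 1 was higher against 6.31% (25.9% in either direction). Relative to the median gene 4 were lower, Id1, Id2, Id3 and Bmp4, against 13.5%, and Inhba was higher against 9.17%. Fst and Tgfb3 were the pair that no longer reached 2-fold on that scale. The median change of the 8 was -1.84 on the deposited scale and that of all genes -0.28. These counts describe genes that were chosen with such changes known and support nothing further.

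The other genes of the pathway give the setting. A list of 98 was drawn up from textbook roles, of which 59 were on the array and 32 passed the filter in astrocytes. It, too, was made with earlier results of these data known. In neurons 35 passed, and Dcn alone was at least 2-fold higher at each dose, with none lower. That count fell to 0 at both doses with the mean over a gene's probe sets or the stricter filter, at 1 µg/ml after quantile normalization, and at 10 µg/ml against the lower doses' mean or the 1 µg/ml array. At 10 µg/ml 1 of the 32 was at least 2-fold higher and 2 were lower (4.34% and 2.26% of all genes), with a median change of -0.26 on the deposited scale against -0.10 for all genes. At 100 µg/ml 1 was higher and 10 were lower on that scale (6.31% and 19.6% of all genes), with a median of -0.56 against -0.28. Relative to the median gene the counts at 100 µg/ml were 4 higher (Gdf15, Ltbp1, Cdkn1a and Neurod2) and 7 lower, beside 9.17% and 13.5% of all genes.

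**Figure D3:**
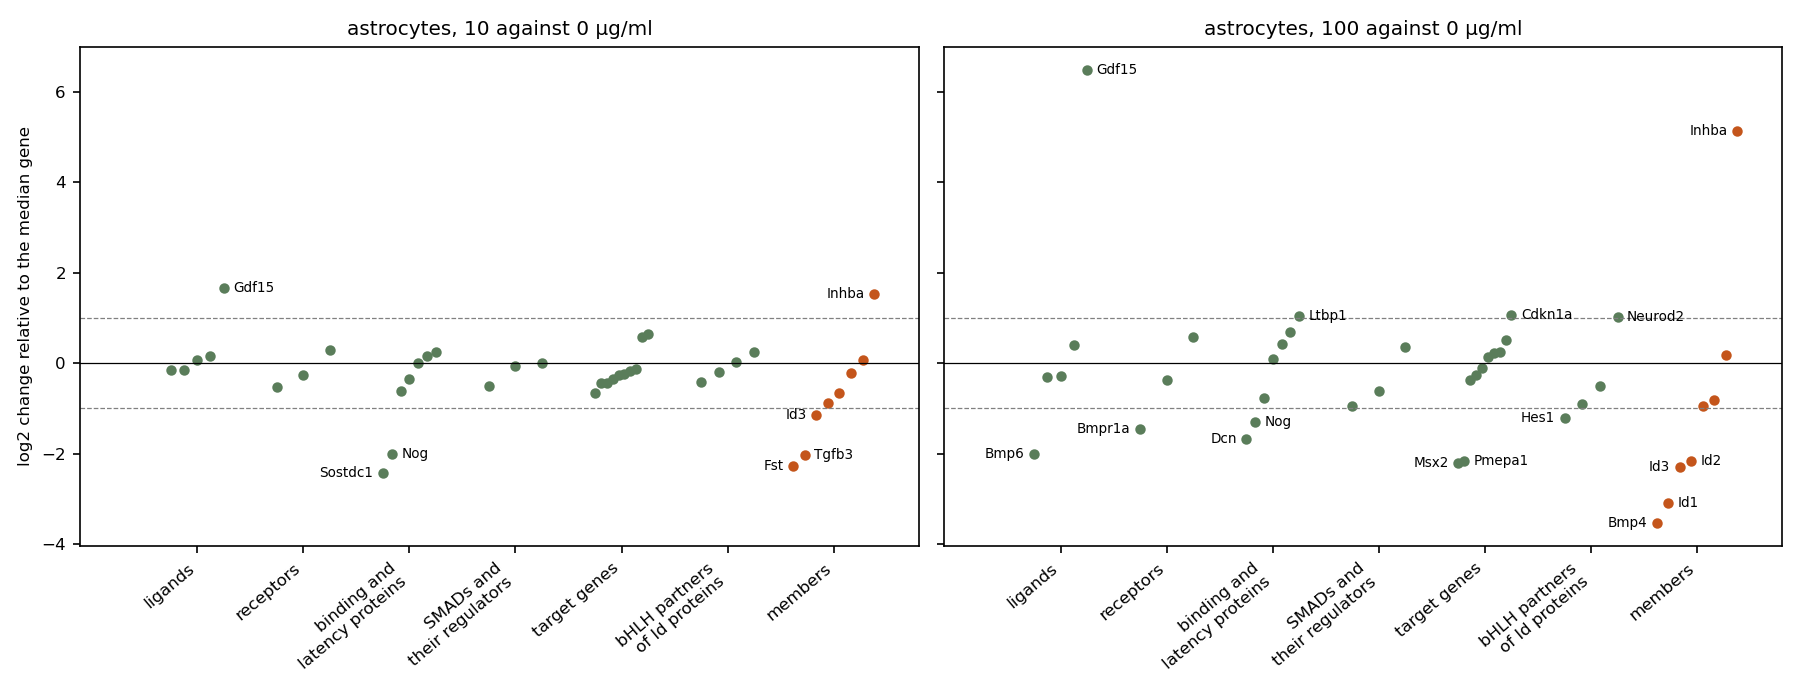
Log2 change relative to the median gene (vertical axis) in astrocytes at 10 and at 100 µg/ml for the other pathway genes that passed the filter, by role (green), and for the members (orange), 1 point per gene. Genes past 2-fold (dashed lines) are named; Sostdc1 and Nog stand lowest among the other pathway genes at 10 µg/ml, and Gdf15 and Inhba highest at 100 µg/ml.

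Among ligands, Gdf15, a stress-induced member of the superfamily, was higher by 6.48 relative to the median gene at 100 µg/ml (signals of 56.9, 28.6, 168 and 4197), and Bmp6, a BMP ligand, stood at -2.02 (1035, 1082, 867 and 210). Bmp7, another BMP ligand, had 442, 427, 461 and 296. Of the receptors, Bmpr1a, a type I BMP receptor, stood at -1.46 (319, 152, 250 and 95.2), though its signal at 1 µg/ml was already below that at 10 µg/ml. Acvr1b and Acvr2b, receptors for activin, had 89.7, 104, 58.3 and 111 and 320, 369, 367 and 203, both within 2-fold.

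Among the secreted antagonists, Nog and Sostdc1 were lower and Nbl1 was not. Nog stood at -2.01 at 10 µg/ml and -1.30 at 100 µg/ml. Sostdc1, which binds BMPs and Wnt receptors, stood at -2.43 and -0.77 (301, 284, 52.2 and 146). For both, as for Fst and Tgfb3, the array at 10 µg/ml was the lowest of the 4. Nbl1, which binds BMPs, had 1809, 1806, 2006 and 2007. Chrd and Grem1, also BMP antagonists, were dim and did not pass the filter. Dcn, a proteoglycan that binds TGF-beta, stood at -1.69 at 100 µg/ml, but on the deposited scale 1 of its probe sets stood at -1.97 and another at -0.17. Fstl1 and Bgn, which also bind ligands or matrix, were within 2-fold at 100 µg/ml.

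Of the SMADs, Smad1, a transducer of BMP signals, had 172, 188, 161 and 182 in astrocytes, and its dimmer probe set was higher by 1.27 at 100 µg/ml on the deposited scale. Smad4, the partner shared by all branches, stood at -0.95 (379, 280, 251 and 162), past 2-fold only on the deposited scale at -1.23. Of the target genes, Msx2, a homeobox gene induced by BMPs, stood at -2.21 at 100 µg/ml (160, 129, 117 and 28.5). Pmepa1, a TGF-beta target that feeds back on the pathway, stood at -2.16 (1224, 1709, 1012 and 226). For both, the array at 100 µg/ml was far below the other 3, as for Id1 and Id2. Msx1, another homeobox gene on the list of target genes, did not share this and stood at 0.13 at 100 µg/ml (1015, 920, 785 and 917). Nor did several other TGF-beta targets that passed the filter. Tagln, a smooth muscle actin-binding protein, was within 2-fold (7619, 7185, 4484 and 5188). Fn1, Col1a2, Acta2 and Col1a1 were also within 2-fold by their brightest probe sets. On the deposited scale the probe sets of Acta2 ran from -1.16 to 0.52 at 100 µg/ml. Those of Col1a1 ran from -0.66 to 1.79, so both genes had a probe set past 2-fold, in opposite directions. Snai2, also on the list of target genes, did not pass the filter in astrocytes. Its signals there were 128, 114, 54.2 and 5.1, lowest at 100 µg/ml, where it was under the floor. Of the bHLH genes, Hes1, a repressor of neuronal differentiation, stood at -1.21 and Tcf4, an E protein that Id proteins bind, at -0.91, or -1.19 on the deposited scale.

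The cell types were compared over the 6 arrays at the doses both received, 0, 1 and 10 µg/ml, with the doses as replicates, so that the spread holds the dose effect. Bmp4 was higher in astrocytes, with a mean signal of 200 ± 64.8 (SD, n = 3) against 49.3 ± 40.7 (n = 3) in neurons, and so was Id3, at 6114 ± 2450 against 2212 ± 86.0. For both, the arrays did not overlap. Bmp4 passed the filter only through astrocytes, where it is high. Tgfb2 was higher in neurons without overlap, at 164 ± 14.2 against 88.0 ± 11.4. The dim Tgfb1, which passed in neither cell type, did not overlap either and was higher in astrocytes. The share of all genes without overlap was not counted. In the limma test given below 44.3% of 2953 genes were called, so a lack of overlap is no result about the members. The log2 differences, neurons minus astrocytes, were -2.18 for Bmp4, -1.37 for Id3 and 0.90 for Tgfb2, with standard errors of 0.75, 0.39 and 0.13. That of Bmp4 is a bound, since its neuron signal at 10 µg/ml, 9.90, was raised to the floor.

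Id1, Id2, Inhba, Fst and Tgfb3 overlapped between the cell types. Id2 had nearly equal means, 1891 ± 161 in neurons and 1833 ± 151 in astrocytes. In untreated cells alone, Id3 was lower in neurons by -1.81 log2 and Inhba higher by 1.23, on 1 array each. At 100 µg/ml the Id1, Id2 and Id3 signals in astrocytes were -2.80, -2.54 and -0.73 log2 from the mean of the neuron arrays. The Inhba signal was 3.68 above that mean. These values are on the deposited scale, on which that astrocyte array had the lowest median signal. Neurons were not given that dose.

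**Figure D4:**
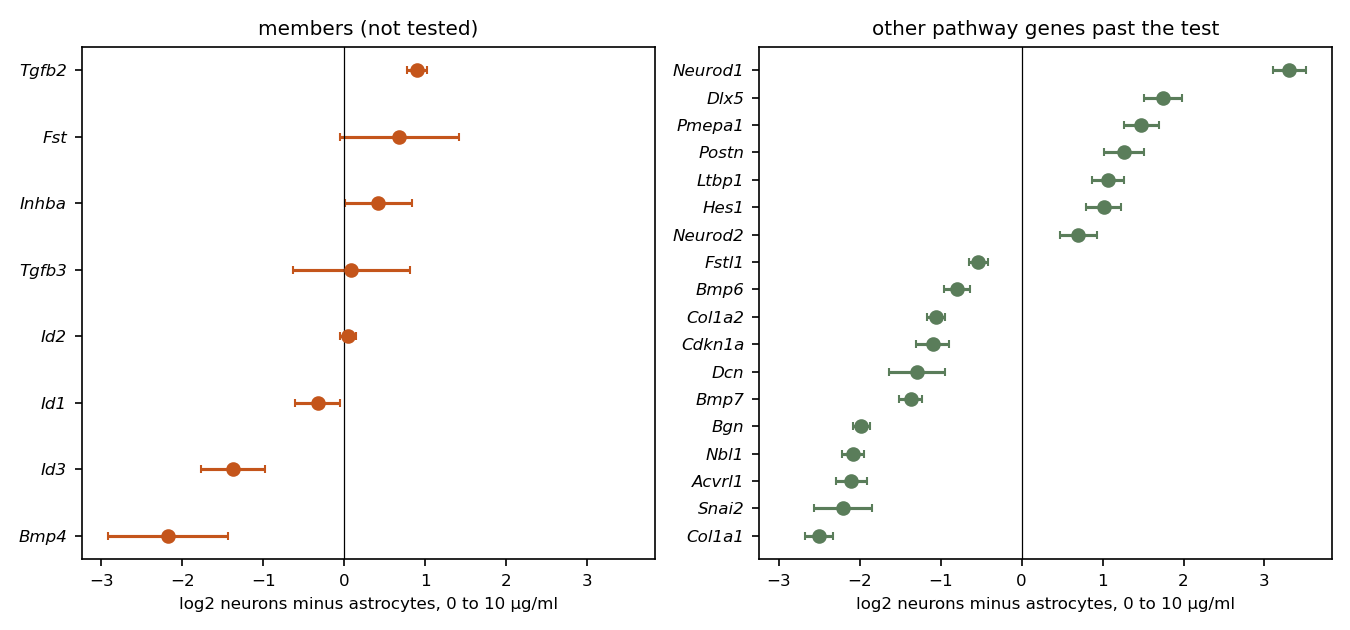
Difference in log2 signal, neurons minus astrocytes, over the arrays at 0, 1 and 10 µg/ml (3 per cell type), for the members that passed the filter (left, not tested, bars are standard errors from the spread of the arrays) and for the other pathway genes past adjusted p 0.05 in limma (right, bars are limma's standard errors). Among members Bmp4 and Id3 lie farthest towards astrocytes and Tgfb2 farthest towards neurons.

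Of the other pathway genes, 37 passed the filter in either cell type, and limma with Benjamini-Hochberg adjustment over 4736 probe sets called 18 of them, 7 higher and 11 lower in neurons. The share called was 48.6% of the list and 44.3% of all 2953 genes (24% higher and 20.3% lower in neurons), so the list's share lay near the background. Of the 30 that passed in both cell types 3 were higher and 9 lower, and 39.9% of all genes that did so were called. Median differences were -0.03 for the list and 0.05 for all genes.

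Higher in astrocytes were the BMP ligands Bmp7 (-1.37 log2, adjusted p = 0.000202, limma) and Bmp6 (-0.79, adjusted p = 0.00509), with no overlap between the arrays. Of 5 receptors Acvrl1, a type I receptor best known from endothelium, was called (-2.10, adjusted p = 9.05e-05). It was at or near the floor in neurons and, at the shared doses, passed the filter only through astrocytes. Its signal in untreated neurons, 10.7, was raised to the floor, so its difference is a bound and the spread behind its p is narrowed. The binding proteins Nbl1 (-2.08), Bgn (-1.98) and Dcn (-1.29) were higher in astrocytes, whereas Ltbp1, which anchors latent TGF-beta in the matrix, was higher in neurons (1.07). Their adjusted p were 1.31e-05, 5.67e-06, 0.0183 and 0.00317 (limma). None of the 3 SMADs that passed the filter, Smad1, Smad2 and Smad4, was called, and none had an unadjusted p under 0.05, while Smad3, Smad7 and Smad9 did not pass.

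Of 13 target genes 3 were higher and 4 lower in neurons. Col1a1, a collagen that is also on the fibroblast and meningeal list, stood at -2.50 (adjusted p = 2.17e-05, limma), Snai2, a transcriptional repressor of mesenchymal cells, at -2.20 (0.00179), Dlx5, a homeobox gene of GABAergic forebrain neurons, at 1.75 (0.000676) and Pmepa1 at 1.48. The summed signal of that fibroblast and meningeal list was at least 42657 on astrocyte arrays and at most 9818 on neuron arrays, and its part in these differences was not tested. Of the bHLH genes, Neurod1, a neuronal differentiation factor, was higher in neurons by 3.31 log2 (adjusted p = 1.16e-05, limma), Hes1 by 1.01 (0.00717) and Neurod2 by 0.70 (0.0391). At the shared doses Neurod1, Neurod2 and Dlx5 passed the filter only through neurons, and Snai2 only through astrocytes. Neurod1 had 11.7, 19.5 and 5.7 in astrocytes at 0, 1 and 10 µg/ml, and Snai2 had 15, 25.3 and 5.7 in neurons. Signals under the floor were raised to it, so both differences are bounds and the spread behind their p is narrowed. Neurod2 lost its call without any 1 of the neuron arrays or without the astrocyte array at 1 µg/ml, and Dcn and Snai2 lost theirs without the untreated astrocyte array. With the mean over a gene's probe sets Neurod1 and Dlx5 were no longer called, and with all 7 arrays Bmp6 and Acvrl1 were not.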

How the data were processed

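Gene expression was measured on 7 Affymetrix arrays, 1 for each combination of cell type and dose. Per the labels, 100 ng of total RNA was amplified and biotin-labelled in a two-cycle cRNA procedure, and per the submitters' processing notes GCOS was used (version not given in the sources used here). Signal intensities on a linear scale were deposited by the authors, and their nearly equal trimmed means show that arrays were scaled to one level. Of 8799 probe sets, 59 controls were left out. Symbols came from the platform annotation (7006 probe sets with 1 symbol, 308 with several, 1426 with none; 6985 found in RefSeq by gene ID).

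Signals were floored, filtered and set in log2 as stated above. Called changes are 2-fold or more. Cell types were compared with limma 3.58.1 in R 4.3.3 (a two-sided moderated test, prior variance following mean signal, threshold 0.05), a choice that differs from a fit of all arrays because 100 µg/ml was given to astrocytes only. On simulated data for that comparison (4736 probe sets, noise SD 0.134 log2), 100 of 100 changes of size 1 and 100 of 100 of size 2 were recovered with 9 false calls. That noise came from the median variance of the neuron arrays and was the same for every probe set. Astrocyte arrays, whose spread holds the dose effect, did not enter it, so the recovery does not give the power of the real comparison. The p-values measure only the spread between these arrays, and the number of arrays limits the precision. Alternatives were other filters, floors, scalings, references, probe set summaries, priors, dose as a block, all arrays, and leaving out each array.

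The members and lists were chosen with earlier results of these data known. Named genes are all members; per role, up to 3 pathway genes with the largest called difference between cell types and up to 3 with the largest change of at least 2-fold at 100 µg/ml in astrocytes; and the 2 genes nearest each member in pattern. Other genes named were chosen after their values were seen. Python 3.11.15 and matplotlib 3.10.9 drew the figures.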

Additional observations from a re-analysis of the deposited data

Results flagged for a closer look

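Inhba was lower at both shared doses in neurons and higher at both in astrocytes. Other members differed in sign between the cell types at single doses, among them Id1 at 1 and 10 µg/ml, but not with 1 direction throughout in each cell type. Its log2 changes against the untreated array were -0.09 at 1 µg/ml and -0.15 at 10 µg/ml in neurons. In astrocytes the same doses gave 0.78 and 1.42. With 1 array per dose this difference was not tested, and the neuron changes lay inside the range that held 90% of genes.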

How the results depend on the processing

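Changes with dose could not be paired, since each combination of cell type and dose was a single array. Between cell types the arrays could be paired by dose, and with dose as a block 17 of the 18 calls among other pathway genes remained (6 higher, 11 lower), with 1905 probe sets called in place of 2113. No change of a member past 2-fold turned its direction under any alternative that was run, and 367 of 380 member values under an alternative moved by less than the SD of all genes' changes. The other 13 concern dim signals (no floor; Bmp4 at 100 µg/ml was then -4.96), the mean over probe sets for Id1, or another reference. The count of 367 says little, since a signal filter leaves a member's own value as it was. A probe set mean does so for members with 1 probe set, as does the lower doses' mean at 1 µg/ml. The SD was also wide, at 1.13 log2 in astrocytes at 100 µg/ml. There Fst ran from -1.30 to -0.31 over the alternatives without counting as moved. With no signal filter, 1 member was lower in neurons at 10 µg/ml (Bmp4) and 1 in astrocytes at 1 µg/ml (Tgfb1), against 0 each, and 2 were higher in astrocytes at 100 µg/ml against 1. With the filter at the 75th percentile (435.7) fewer members were left. In astrocytes 0 were then higher and 1 lower at 10 µg/ml, against 1 and 3, and 0 higher and 3 lower at 100 µg/ml, against 1 and 6. With the 1 µg/ml array as reference 0 members were higher at 10 µg/ml, against 1.

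Of the other pathway genes called between cell types, 7 were lower in neurons when all 7 arrays were fitted, against 11, and 2 were higher with the stricter filter, against 7. Leaving out each array gave 6 to 9 higher and 9 to 13 lower. Neurod2 lost its call without the neuron array at 0, at 1 or at 10 µg/ml, without the astrocyte array at 1 µg/ml, with dose as a block, with no signal filter and after quantile normalization. Dcn and Snai2 lost theirs without the untreated astrocyte array. With all 7 arrays Bmp6, Acvrl1, Dcn, Snai2 and Neurod2 were no longer called, with the mean over probe sets Neurod1 and Dlx5, and with no signal filter Fstl1 and Dcn. The stricter filter lost Acvrl1, Ltbp1, Dcn, Dlx5, Postn, Snai2, Neurod1 and Neurod2. The stricter filter called 849 genes in place of 1308 and 1317 probe sets in place of 2113. For astrocytes at 100 µg/ml it left 85 genes higher and 186 lower at 2-fold in place of 170 and 527, and at 10 µg/ml 60 and 14 in place of 117 and 61. With no filter these were 182 and 226 at 10 µg/ml, and 297 were higher at 100 µg/ml. Of the other pathway genes 7 were then higher at 100 µg/ml, and with the stricter filter 0 were higher and 3 lower, in place of 1 and 10. Genes near the floor give no order, and no array was repeated.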
